A study of Rattus norvegicus with 4 samples.

Results

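Hmcn1, Crispld2, Dpt, Olfml2b, Spon1 and Smoc1 are 6 genes for secreted matrix proteins, taken by name from 34034 genes counted in rat mesenchymal stem cells. They were chosen by their measured levels in these same 4 libraries: lower in senescent cells, with or without the histone deacetylase inhibitor trichostatin A (TSA), and higher once phenamil (an amiloride derivative) was added. Their levels are therefore a description of the choice and carry no test. All 6 passed the filter on low values, 40 or more counts summed across libraries, as did 12228 genes in all. The description "low in senescent" held for 5 of the 6: the level of Smoc1 in untreated senescent cells was no lower than in young cells.

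The cells came from femurs and were kept in osteogenic induction medium, and each library was made at day 1, after 24 h of treatment. There were 4 groups of 1 library each. The young control and the senescent control received vehicle, and the other senescent cells received TSA, or both TSA and phenamil. No library held phenamil alone, and the labels put all 4 in 1 batch. The series title and labels name phenamil, its design text names benzyl ether as the second compound, and the labels were followed. The sources used here do not give doses, the strain, age or number of the animals, or the way the cells became senescent. No group had a replicate, so there is no p-value, and each difference given is one between single libraries, not between conditions.

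The extracellular matrix that stromal cells lay down holds collagen fibrils, basement membrane sheets and many less abundant glycoproteins that link these to each other and to cells. Dpt encodes dermatopontin, a small protein that binds the proteoglycan decorin and helps collagen fibrils form. Hmcn1 encodes hemicentin-1, a very long chain of immunoglobulin-like domains that anchors tissues at basement membranes. Spon1 encodes F-spondin, a thrombospondin-repeat protein known from axon guidance that binds the amyloid precursor protein, and Olfml2b encodes an olfactomedin-domain protein that binds glycosaminoglycans. Smoc1 encodes a calcium-binding relative of SPARC that modulates bone morphogenetic protein (BMP) signalling, and Crispld2 encodes a cysteine-rich secreted protein of lung mesenchyme, induced by glucocorticoids.

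Promoter sequences were available for 5 of the 6 genes in RefSeq (build GRCr8), and none for Spon1. The windows of Dpt, Smoc1 and Hmcn1 are printed, 5′ to 3′, because they carry the motif matches described next, and they differ widely in GC content. Each is the 250 bases before the listed start, with capitals marking matches on either strand to the TATA box (TATAAA), the CCAAT box (CCAAT) and the GC box (GGGCGG).
Dpt: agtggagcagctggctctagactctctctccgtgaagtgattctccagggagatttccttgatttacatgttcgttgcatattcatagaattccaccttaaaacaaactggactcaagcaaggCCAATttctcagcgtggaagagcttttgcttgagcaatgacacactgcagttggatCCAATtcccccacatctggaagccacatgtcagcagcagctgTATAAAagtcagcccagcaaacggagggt
Smoc1: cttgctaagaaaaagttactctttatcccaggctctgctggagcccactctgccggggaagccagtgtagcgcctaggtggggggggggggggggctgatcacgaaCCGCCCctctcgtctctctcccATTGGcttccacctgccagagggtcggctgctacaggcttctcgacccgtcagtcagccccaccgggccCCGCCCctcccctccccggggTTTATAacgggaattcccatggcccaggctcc
Hmcn1: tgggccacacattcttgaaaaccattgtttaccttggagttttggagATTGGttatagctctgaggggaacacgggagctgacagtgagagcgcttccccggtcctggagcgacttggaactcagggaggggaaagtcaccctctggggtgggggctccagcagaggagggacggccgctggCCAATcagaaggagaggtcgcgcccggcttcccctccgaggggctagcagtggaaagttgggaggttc

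The Dpt window had a TATA box whose first base lay 29 bases before the start and 2 CCAAT boxes. Its GC content was 47.2%, against a median of 51.2% over 33465 rat promoters. The Smoc1 window was richer in GC, at 64.8%, with 2 GC boxes, 1 CCAAT box and the letters of a TATA box on the other strand. The Hmcn1 window, at 59.6% GC, had 2 CCAAT boxes and no TATA or GC box. Olfml2b had the richest window of the 5, at 66.0% GC with 23 CpG pairs, and no match to these 3 motifs. For Crispld2 the listed start lies 17192 bases inside the gene's span, so that window, at 55.2% GC, may not be the start used in these cells. CCAAT occurred in 4 of the 5 windows and in 34.0% of all promoters. The TATA box occurred in 2 of 5 and in 12.9%, and the GC box in 1 of 5 and in 30.5%. An E-box (CANNTG) occurred in 3 of 5 and in 65.5% of all promoters. AGAACA, which is 1 arm of the glucocorticoid receptor's palindromic element, and the TEAD element (GGAATG) each occurred in 1 of 5, in both cases Crispld2, against 17.5% and 12.1%. No window held an AP-1 site (TGANTCA, 6.34% of all promoters) or the SMAD element CAGAC (42.9%). All motifs were searched on both strands.

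Levels are CPM, counts relative to library size after TMM scaling (edgeR's trimmed mean method), with 95% counting intervals in parentheses. The libraries held 9873894 to 11024227 counts. Intervals cover counting error only and say nothing of the spread between cultures. A gene is called past 1.5-fold when the whole interval of its ratio lies beyond 1.5-fold. The libraries read the 3′ ends of polyadenylated transcripts, and in bulk RNA fewer cells of a type cannot be told apart from less RNA per cell. Of 11 mesenchymal stromal markers all had at least 40 counts, among them Thy1, Eng, Pdgfra and Prrx1. Of all genes with at least 40 counts, 0.491% to 1.66% were past 1.5-fold in 1 direction, by pair of libraries. Of the 11 markers, only Pdgfrb, a growth factor receptor gene, was past 1.5-fold in any pair. It stood at 0.553 (0.474 to 0.643) in TSA over young and 1.83 (1.57 to 2.13) in TSA plus phenamil over TSA. In senescent over young its ratio was 0.833 (0.731 to 0.949), not past 1.5-fold. Nt5e, not past 1.5-fold in any pair, went the other way. It stood at 1.63 (1.27 to 2.09) in TSA over young and 0.730 (0.574 to 0.927) with phenamil added. Of 5 osteoblast markers, Sp7 and Ibsp were at 0 counts in all 4 libraries, and Bglap had 0 to 2. From young control to TSA plus phenamil, Alpl had 194, 212, 158 and 227 counts and Runx2 297, 216, 171 and 248. In TSA plus phenamil over TSA, Alpl stood at 1.36 (1.10 to 1.67) and Runx2 at 1.37 (1.12 to 1.67), neither past 1.5-fold.

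**Figure D1:**
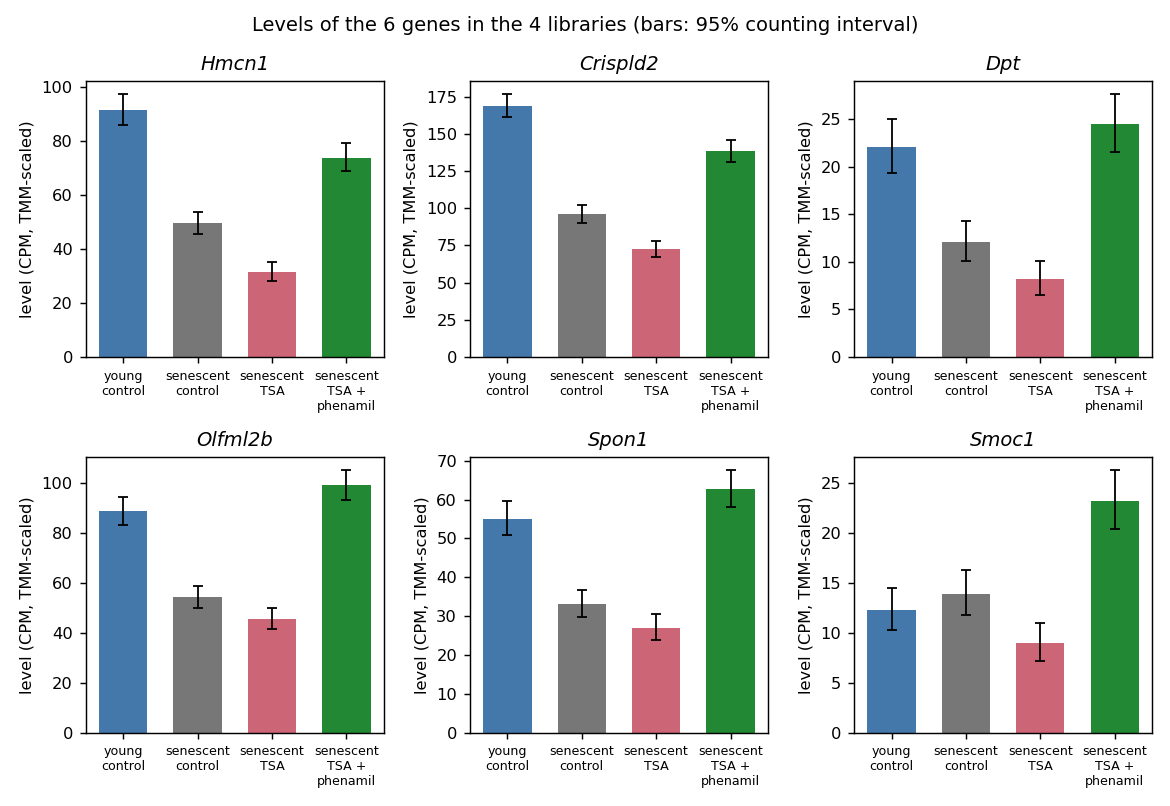
Level of each gene in each library, in CPM on a linear axis from 0, with 1 panel per gene and 1 bar per library; error bars are 95% Poisson counting intervals. The senescent TSA bar is the lowest in all 6 panels, and the tallest bar is the young control for Hmcn1 and Crispld2 and TSA plus phenamil for the other 4.

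Of the 2 genes of collagen and basement membrane scaffolds, Dpt had 245 counts in young cells, 133 in senescent cells with vehicle, 81 with TSA and 257 with TSA plus phenamil. These are levels of 22.1 CPM (19.4 to 25.0), 12.1 (10.1 to 14.3), 8.17 (6.48 to 10.2) and 24.5 (21.6 to 27.7). Dpt was thus high in the young and the TSA plus phenamil libraries, whose ratio of 1.11 (0.927 to 1.33) included no change, and low in the other 2. Between its highest and lowest library it differed 2.997-fold, the widest range of the 6.

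Hmcn1 had 1016, 546, 314 and 776 counts in the same order of libraries. Its level was 91.6 CPM (86.0 to 97.4) in young cells, 49.6 (45.5 to 53.9) in the senescent control, 31.7 (28.3 to 35.4) with TSA and 73.9 (68.8 to 79.3) with both compounds. All 4 libraries differed beyond counting error, and the young control stayed 1.24 times (1.13 to 1.36) above TSA plus phenamil. Its range was 2.89-fold.

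Olfml2b had 984 counts in young cells, 599 in the senescent control, 453 with TSA and 1041 with TSA plus phenamil, or 88.7, 54.4, 45.7 and 99.1 CPM. Its order of libraries was that of Dpt, with TSA plus phenamil 1.12 times (1.02 to 1.22) the young level. Spon1 had 611, 364, 268 and 658 counts, or 55.1, 33.0, 27.0 and 62.7 CPM, and TSA plus phenamil stood at 1.14 times (1.02 to 1.27) the young level. The profiles of these 2 genes over the 4 libraries were the closest pair among the 6. The Euclidean distance between their log2 CPM, centred on each gene's mean, was 0.07, whereas the other 14 pairs lay 0.25 to 0.98 apart.

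Of the secreted regulators, Crispld2 had 1873 counts in young cells, 1057 in the senescent control, 717 with TSA and 1453 with both compounds, or 168.8, 96.0, 72.3 and 138.4 CPM. Like Hmcn1 it was highest in the young control, which stood 1.22 times (1.14 to 1.31) above TSA plus phenamil. Its range of 2.34-fold was nearly that of Spon1, at 2.32-fold.

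Smoc1 departed from this pattern. It had 136 counts in young cells, 153 in the senescent control, 89 with TSA and 244 with TSA plus phenamil, which are 12.3 CPM (10.3 to 14.5), 13.9 (11.8 to 16.3), 8.97 (7.21 to 11.04) and 23.2 (20.4 to 26.3). Only the TSA plus phenamil library was high, and the 2 vehicle libraries did not differ beyond counting error, with a ratio of 1.13 (0.893 to 1.44) for senescent over young. Its profile lay farthest from the mean of the 6, at 0.66 on the log2 scale, against 0.13 to 0.36 for the others.

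As a scale for these ranges, the highest library stood 1.27 times above the lowest in the median gene with at least 200 counts, and 1.83 times at the 95th percentile of 9650 such genes. The 6 ran from 2.17-fold (Olfml2b) to 2.997-fold (Dpt), as genes chosen for differing would.

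**Figure D2:**
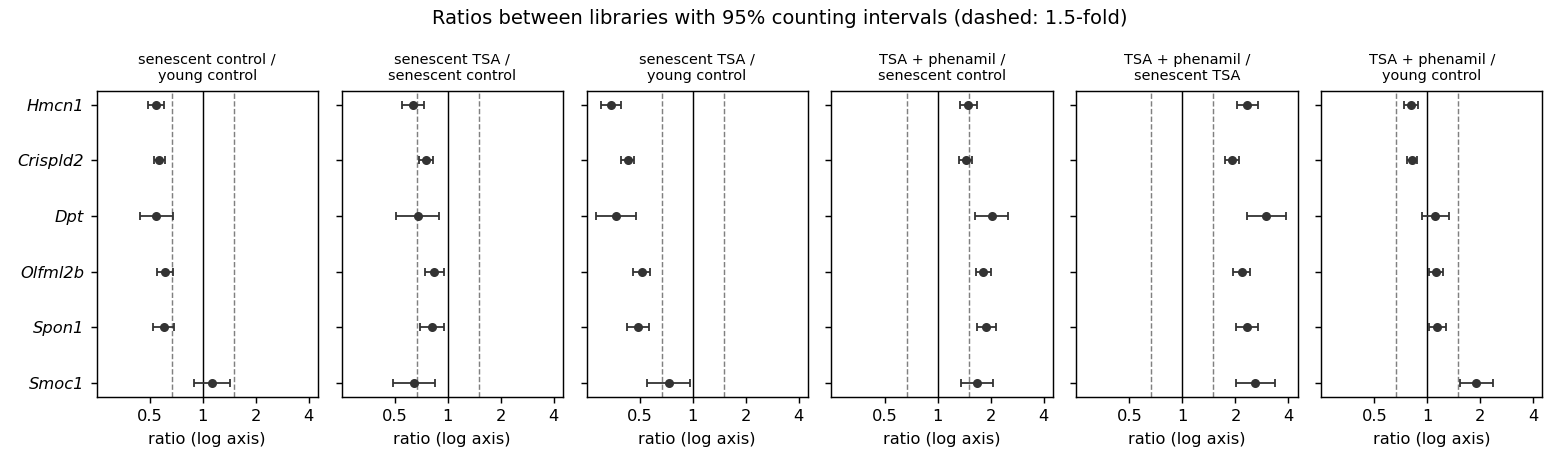
Ratio of each gene between 2 libraries for the 6 pairs of libraries, on a log axis, with 95% exact counting intervals; the solid line is no change and the dashed lines are 1.5-fold. In the fifth panel, TSA plus phenamil over TSA, all 6 intervals lie beyond 1.5-fold, while in the first panel Smoc1 alone lies on the other side of no change.

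In untreated senescent against young cells, Hmcn1 at 0.541 (0.487 to 0.601) and Crispld2 at 0.568 (0.527 to 0.613) were past 1.5-fold lower. That is 2 of 6, where 0.622% of all tested genes were past 1.5-fold lower and 0.728% higher. Dpt at 0.547 (0.439 to 0.678), Olfml2b at 0.613 (0.553 to 0.679) and Spon1, with 0.59997 (0.526 to 0.684), had ratios of like size, but their intervals reached to less than 1.5-fold. Counted by an interval that excludes no change, 5 of 6 were lower and none higher, against 16.7% and 18.1% of all genes. The median log2 ratio of the 6 was -0.78, and that of all tested genes 0.005.

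With TSA alone against the senescent control, no gene of the 6 was past 1.5-fold in either direction, where 0.523% of all genes were past it lower and 0.548% higher. All 6 intervals nevertheless lay below no change, against 14.7% of all genes, and none above it, against 15.7%. The ratios were 0.639 (0.554 to 0.735) for Hmcn1, 0.646 (0.492 to 0.844) for Smoc1 and 0.676 (0.507 to 0.898) for Dpt. Crispld2 stood at 0.753 (0.684 to 0.829), Olfml2b at 0.840 (0.742 to 0.95033) and Spon1 at 0.818 (0.696 to 0.960). Hmcn1, Dpt and Smoc1 thus had the lower ratios and Olfml2b and Spon1 the ones nearest to 1. The median log2 ratio was -0.49, and -0.003 over all genes.

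Set against the young control, the TSA library had 5 of the 6 past 1.5-fold lower, where 1.5% of all genes were and 1.66% were higher. All 6 intervals lay below no change, against 20.4% of all genes, with 20.9% above it. Hmcn1 was at 0.346 (0.304 to 0.393), Dpt at 0.370 (0.284 to 0.477) and Crispld2 at 0.428 (0.392 to 0.467). Olfml2b was at 0.515 (0.460 to 0.576) and Spon1 at 0.4905 (0.423 to 0.567). Smoc1 was at 0.732 (0.554 to 0.963) and not past it. If cultures are assumed to vary with a coefficient of 0.2, 1 of the 6 (Hmcn1) was past 1.5-fold lower. This was the pair of libraries with the most differences in the whole table, and the median log2 ratio of the 6 was -1.12.

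Adding phenamil to TSA gave the comparison in which most of the 6 were called. All 6 genes were past 1.5-fold higher in TSA plus phenamil than in TSA alone, where 1.01% of all genes were and 0.81% were lower. By intervals that exclude no change the shares of all genes were 16.6% higher and 17.1% lower. Dpt stood at 2.997 (2.33 to 3.897), Smoc1 at 2.59 (2.02 to 3.34) and Hmcn1 at 2.33 (2.045 to 2.67). Spon1 stood at 2.32 (2.01 to 2.68), Olfml2b at 2.17 (1.94 to 2.43) and Crispld2 at 1.91 (1.75 to 2.096). The median log2 ratio was 1.22, and 0.001 over all genes. If cultures are assumed to vary with a coefficient of 0.2, Dpt was the 1 of the 6 still past 1.5-fold. Since each of the 6 was also at its lowest in the TSA library, the ratios hold both that low level and the high level with phenamil.

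Against the senescent control, TSA plus phenamil had Dpt at 2.03 (1.64 to 2.52), Olfml2b at 1.82 (1.65 to 2.02) and Spon1 at 1.896 (1.67 to 2.16), which were past 1.5-fold higher. That is 3 of 6, against 0.581% of all genes, with 0.507% lower. Smoc1 stood at 1.67 (1.36 to 2.06), Hmcn1 at 1.49 (1.33 to 1.67) and Crispld2 at 1.44 (1.33 to 1.56), all with intervals above no change, so that 6 of 6 were higher by that count, against 15.8% of all genes, with 15.9% lower. This pair shares the senescent control with the first comparison and the TSA plus phenamil library with the preceding one.

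TSA plus phenamil against the young control shows how far apart the 2 high libraries were. Smoc1 was past 1.5-fold higher with both compounds, at 1.895 (1.53 to 2.36), which is 1 of 6 against 0.556% of all genes, with 0.491% lower. With total counts in place of TMM it was no longer past 1.5-fold, and the share of higher among all called genes fell from 53.1% to 40.5%. Hmcn1 at 0.807 (0.734 to 0.887) and Crispld2 at 0.819 (0.765 to 0.878) were below the young level, against 15.7% of all genes whose intervals lay below no change. Smoc1, Olfml2b and Spon1 had intervals above it, against 16.1% of all genes, and the interval of Dpt included no change, as given with their levels.

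Relatives of the 6 by protein family (fixed as a list of 20 genes, 14 with at least 40 counts) did not share 1 profile. Smoc2, the nearest relative of Smoc1, had 354 counts in young cells, 558 in the senescent control, 601 with TSA and 298 with TSA plus phenamil. In TSA plus phenamil over TSA the ratio of Smoc2 was 0.468 (0.406 to 0.539), past 1.5-fold lower, where Smoc1 was past it higher. In the young control both genes were below their own mean over the libraries, so the opposite order did not extend to all 4. Sparc, the founding member of that family and a collagen-binding protein of bone, stood at 1.18 (1.17 to 1.18) in the same pair, and Fstl1, a follistatin-like secreted protein, at 1.003 (0.988 to 1.02). Sparcl1, a SPARC-like gene, had 3, 10, 9 and 24 counts and was the 1 relative past 1.5-fold in TSA plus phenamil over young, at 8.45 (2.57 to 43.8), a size that rests on 3 counts. Spock2, another of this family, had 7 to 14 counts per library and was past 1.5-fold in no comparison.

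Among olfactomedin genes, Olfm2 was lowest in the TSA library, as Olfml2b was, but highest in young cells, with 182, 110, 60 and 123 counts from young control to TSA plus phenamil. Olfm2 was past 1.5-fold lower in the TSA library against the young control, at 0.369 (0.271 to 0.496). In TSA plus phenamil over TSA it stood at 1.94 (1.41 to 2.68), not past 1.5-fold. Olfml3, by contrast, had 853 to 997 counts, and TSA plus phenamil over TSA stood at 0.917 (0.839 to 1.003). Olfm1, with 264, 372, 309 and 294 counts, was lowest in young cells, and its senescent over young ratio was 1.42 (1.21 to 1.67). Olfml1 had only 19, 4, 1 and 17 counts in the order of libraries used throughout. Its TSA plus phenamil over TSA ratio of 16.1 (2.52 to 671) rests on that single count and gives no size.

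The fibulins carry the same carboxy-terminal module as hemicentin-1. Fbln2, a basement membrane and elastic fibre protein, had 6446, 5983, 3266 and 6284 counts and was low in the TSA library alone. With TSA it stood at 0.606 (0.581 to 0.633) of the senescent control and with both compounds at 1.82 (1.74 to 1.897) times TSA alone, both past 1.5-fold. Fbln5, which helps elastic fibres form, was past 1.5-fold lower in TSA than in young cells, at 0.591 (0.535 to 0.652). In TSA plus phenamil over TSA it stood at 1.64 (1.48 to 1.81), not past 1.5-fold. Efemp2 stayed at 1458 to 1625 counts, and Fbln1 had 139 to 191, with TSA plus phenamil over TSA at 1.298 (1.04 to 1.63). The paralogues Hmcn2 (0, 0, 3 and 0 counts), Crispld1 (1, 3, 8 and 1) and Olfml2a (1, 3, 0 and 10) fell under the filter of 40 counts, and Spon2 had 13 to 22 per library. Over the 14 relatives, TSA plus phenamil against TSA had 2 past 1.5-fold higher, Fbln2 and Olfml1, and 1 lower, Smoc2. All genes had 1.01% higher and 0.81% lower, and the median log2 ratio of the relatives was 0.26. In TSA over young, 4 of the 14 were past 1.5-fold lower (Olfml1, Olfm2, Fbln2 and Fbln5), against 1.5% of all genes. Smoc2, at 1.90 (1.66 to 2.17), was the 1 past it higher there, against 1.66%.

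**Figure D3:**
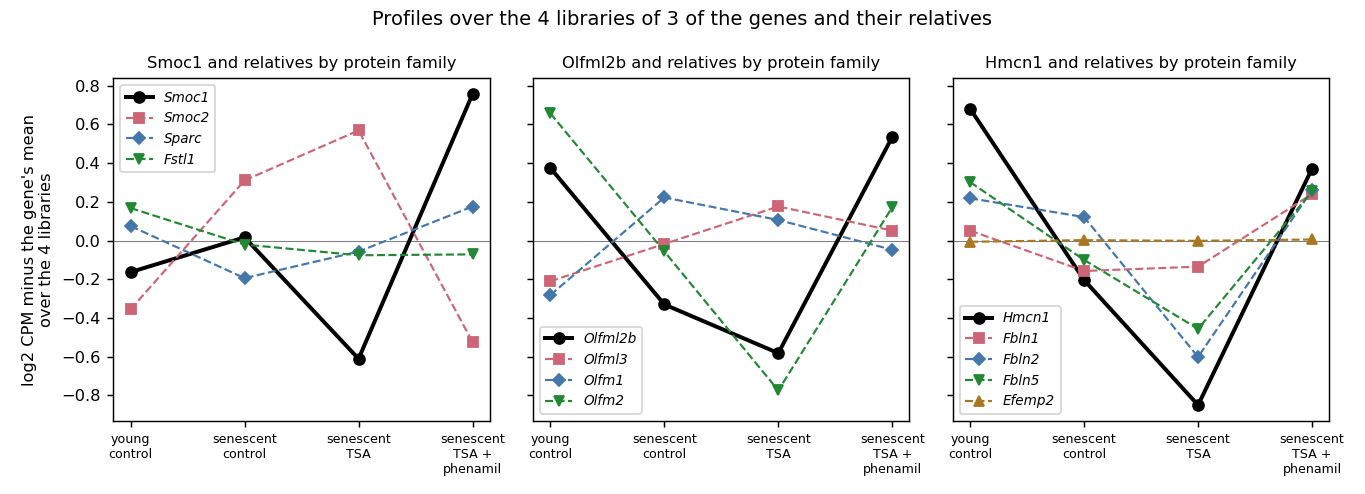
Log2 CPM minus the gene's own mean over the 4 libraries, for Smoc1, Olfml2b and Hmcn1 (black) and relatives with at least 40 counts (dashed); points are single libraries and lines only join them. Smoc2 peaks in the TSA library where Smoc1 is lowest, and Fbln2 and Fbln5 share with Hmcn1 a low point in the TSA library that Efemp2 lacks.

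Of 8 known binding partners, none was past 1.5-fold in any of the 6 comparisons. Among all genes the share past it was also small, 0.491% to 1.66% in 1 direction, by comparison. App, the amyloid precursor protein bound by F-spondin, had 5822, 4968, 4280 and 4965 counts, and Vldlr, a receptor of the same protein, had 495, 430, 355 and 499. For decorin (Dcn), which dermatopontin binds, the counts were 261, 239, 162 and 259, with TSA plus phenamil over TSA at 1.51 (1.24 to 1.85). Fibronectin (Fn1) went the other way in that pair, at 0.828 (0.818 to 0.838), and Tgfb1 stood at 0.727 (0.606 to 0.871).

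For 23 measured genes of collagen fibril assembly, the median log2 ratio in TSA plus phenamil over TSA was 0.18. In that pair none was past 1.5-fold lower, against 0.81% of all genes, and 3 were past it higher, against 1.01%. Those were Col5a3, which encodes a minor fibril collagen, at 2.201 (2.07 to 2.34), Adamts2, whose enzyme trims procollagen, at 2.17 (1.68 to 2.82), and Col3a1 at 1.598 (1.58 to 1.62). In senescent against young controls, Col5a3 and Adamts2 were the 2 past 1.5-fold lower, at 0.591 (0.561 to 0.623) and 0.457 (0.349 to 0.595). Among all genes 0.622% were past it lower in that pair. The crosslinking enzyme gene Loxl3 ran opposite, with 616, 970, 928 and 678 counts.

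Of 23 measured basement membrane genes, 6 were past 1.5-fold lower in TSA than in young cells, against 1.5% of all genes. Past it higher was 1, against 1.66%. The lower ones were the laminin chain genes Lama2 and Lama4, the linker protein gene Nid1, Col15a1, Col18a1 and Fras1, with Nid1 at 0.571 (0.536 to 0.607) and Lama4 at 0.559 (0.510 to 0.612). With phenamil added, Col15a1 at 2.41 (1.83 to 3.20) and Col4a2 at 1.66 (1.53 to 1.81) were past 1.5-fold higher than in TSA. Of all genes 1.01% were past it higher in that pair and 0.81% lower. Lamb3, a chain of the epithelial laminin-332, was lower there at 0.339 (0.249 to 0.455), after standing at 3.58 (2.63 to 4.96) in TSA over young. The median log2 ratio of this list in TSA plus phenamil over TSA was 0.32, the highest of the 9 pathway lists.

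Of 45 other measured matrix glycoproteins, none was past 1.5-fold lower in TSA plus phenamil than in TSA, against 0.81% of all genes. Past it higher were 4, against 1.01%. These were the cartilage intermediate layer protein gene Cilp at 2.898 (2.05 to 4.17), the periostin gene Postn at 1.79 (1.66 to 1.94), Abi3bp at 1.70 (1.57 to 1.85) and the fibrillin gene Fbn1 at 1.61 (1.55 to 1.67). Their median log2 ratio of 0.08 was far below the 1.22 of the 6 genes, which were chosen for that ratio. In senescent against young controls, Emilin2 and Comp were past 1.5-fold higher and Igfbp3 lower, each with fewer than 100 counts in both libraries. Of all genes 0.728% were past it higher in that pair and 0.622% lower. In TSA over young, 4 of the 45 were past 1.5-fold lower, against 1.5% of all genes, and 1 was higher, against 1.66%. Among the lower ones were Abi3bp at 0.515 (0.476 to 0.558) and Fbn1 at 0.545 (0.525 to 0.565). Mfap2, a microfibril gene with 38, 33, 6 and 19 counts, was another, at 0.177 (0.0610 to 0.421).

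Signalling lists that bear on the 6 are read against the shares of all genes given above for each comparison, which were 0.491% to 1.66% in 1 direction. Of 14 measured BMP targets and antagonists, which are relevant to Smoc1, Id1 alone was past 1.5-fold, higher in TSA over young at 1.72 (1.57 to 1.88) and lower in TSA plus phenamil over TSA at 0.593 (0.541 to 0.649). Of 10 measured glucocorticoid-response genes, relevant to Crispld2, none was past 1.5-fold in any comparison, and median log2 ratios ran from -0.08 to 0.11. Of 14 targets of transforming growth factor beta, 1 was past 1.5-fold higher with phenamil added, the smooth muscle actin gene Acta2 at 1.65 (1.63 to 1.67). In TSA over young, Acta2 was lower at 0.590 (0.582 to 0.598) and Tgfbi, from 14 and 36 counts, higher at 2.88 (1.51 to 5.77). Reference genes such as Actb and Gapdh had none of 12 past 1.5-fold in any comparison, with median log2 ratios of -0.16 to 0.25.

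**Figure D4:**
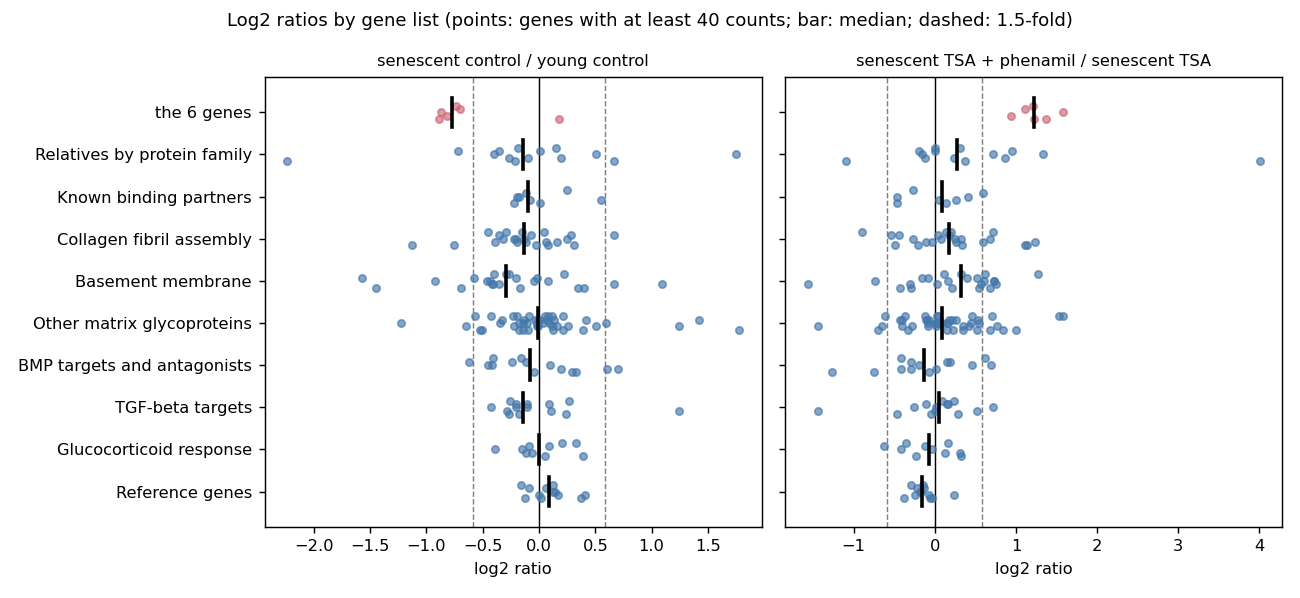
Log2 ratios of single genes (points) by list, for senescent over young controls and for TSA plus phenamil over TSA; black bars are medians, dashed lines mark 1.5-fold, and the lists hold genes with at least 40 counts. In the right panel the 6 genes lie between 0.94 and 1.58, while the medians of the other lists lie between -0.16 and 0.32.

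The genes whose profiles lay nearest to the mean profile of the 6 were sought among 9644 others with at least 200 counts, by Euclidean distance of centred log2 CPM over the 4 libraries. The 7 nearest were Actg2, Etl4, LOC102553183, Bahcc1, Fgd1, Col5a3 and Mylk, at distances of 0.14 to 0.21. Actg2, which encodes an enteric smooth muscle actin, had 265, 168, 124 and 286 counts and was also the nearest gene to Olfml2b and to Spon1. Mylk, the myosin light chain kinase gene, had 145, 94, 71 and 148 counts. Nearest to Hmcn1 was the kinesin gene Kif26b (241, 127, 74 and 176 counts), to Crispld2 Klhl3 (92, 51, 35 and 71), to Dpt the receptor gene Notch3 (331, 176, 93 and 326) and to Smoc1 Zfp161 (84, 94, 58 and 128). With 4 libraries such likeness is a description, and in genes with few counts part of it is counting error.

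**Figure D5:**
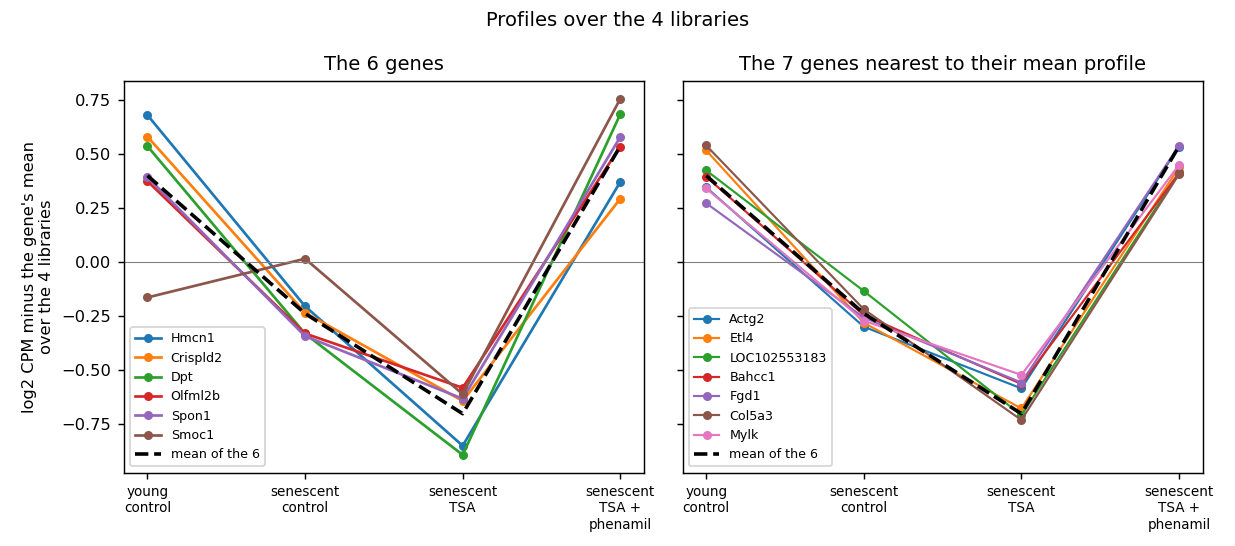
Log2 CPM minus the gene's mean over the 4 libraries for the 6 genes (left) and for the 7 genes nearest to their mean (right); the dashed line in both is the mean of the 6, and lines only join single libraries. Left, Smoc1 is the one gene that is not above its mean in the young control; right, all 7 fall lowest in the TSA library.

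Markers of other cell types ranged from near 0 to well above the level of the 6 genes. Of 9 haematopoietic markers none reached 40 counts, their summed level was 0.451 to 1.90 CPM, and Aif1, Lyz2 and Itgam were at 0. Of 8 endothelial markers 1 reached 40 counts, the sum was 2.62 to 3.81 CPM, and Pecam1, Vwf, Emcn and Cldn5 were at 0. Of 8 epithelial markers 2 reached 40 counts, and their sum was 14.0 CPM in young cells, 29.0 in the senescent control, 38.9 with TSA and 15.7 with both compounds, in reverse of most of the 6 genes. Krt7 (49, 143, 187 and 38 counts) and Krt8 (105, 170, 199 and 121) made up nearly all of it, and Krt14 was at 0. The 6 adipocyte markers summed to 13.0 to 17.5 CPM with Cidec at 0, the 5 osteoblast markers to 33.2 to 45.2 CPM, and the 5 skeletal muscle markers to 37.8 to 54.2 CPM. Of the muscle markers Ckm (12, 2, 18 and 11 counts) was past 1.5-fold higher in TSA over the senescent control, a call that rests on 2 counts. The 4 tendon markers summed to 117.7 to 162.4 CPM with Tnmd at 0, and Thbs4 among them was past 1.5-fold lower in TSA plus phenamil over TSA, at 0.550 (0.468 to 0.645). The 4 Schwann cell markers summed to 274 to 344 CPM with Sox10 at 0, and the 6 chondrocyte markers to 1649 to 1753 CPM with Matn1 at 0. Whether other cells had a part in the levels of the 6 genes was not tested.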

How the data were processed

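Counts and normalized values were available for 4 libraries, 1 per group. Per the labels' protocols, RNA was extracted with TRIzol and sequenced as single-end 100 bp reads of QuantSeq 3′ libraries. HTSeq 2.0.2, STAR 2.7.10b and the build mRatBN7.2 are named in the submitters' processing notes. The sources used here do not give the annotation, strand use or duplicate handling. The deposited table holds raw counts per gene. The deposited log2 values are normalized by the authors, per the file headers, and equalled log2 of the scaled count plus 1 within 0.000532.

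Counts were scaled by TMM (edgeR 4.0.16, R 4.3.3) over genes with at least 40 counts. No quasi-likelihood test was made: with single libraries its fit has no residual degrees of freedom. Ratios have exact conditional binomial (Clopper-Pearson) 95% intervals (scipy 1.17.1). Log2 ratios used a prior count of 0.5. Without molecular identifiers, reads may be copies of one molecule. The interval was tested on simulated Poisson counts. These held no spread between cultures and no copied reads, so the simulation says nothing of either. The 6 genes and the gene lists were chosen with earlier results of these data known. Named list genes were those past 1.5-fold, up to 4 per list and direction, plus family relatives with at least 40 counts; likeness named the 8 genes nearest to the members' mean, of which 1 is not reported here, and the nearest to each. Basement membrane genes beyond 4 and other partner, list and marker genes were named after their values were seen.

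Promoters and gene spans came from RefSeq (GRCr8, a build other than that of the counts, so no coordinates are given), where 93.1% of gene identifiers were found. Genes whose spans overlap Hmcn1, Dpt and Smoc1 had 0 to 8 counts per library, and the 2 that overlap Spon1 were not used here.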

Additional observations from a re-analysis of the deposited data

How the results depend on the processing

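The log2 ratios of the 6 genes in 6 comparisons (36 values) stayed within their counting intervals under DESeq2 1.42.0 size factors (largest shift 0.004), total counts (0.05), a prior count of 2 (0.02) and the authors' deposited log2 values (0.10). The deposited values are log2 of the same counts, scaled, plus 1, at library sizes 0.999 to 1.001 times those used here. They are thus no separate check. DESeq2 size factors left the number of the 6 past 1.5-fold as it was. Dropping the filter or raising it to 200 counts could not change that number. All 6 had 622 or more counts summed across libraries, and scaling and intervals were kept. Total counts changed it in senescent against young controls, from 2 to 3, and in TSA plus phenamil against young, from 1 to 0. In the order senescent over young, TSA over senescent, TSA over young, TSA plus phenamil over senescent, over TSA and over young, the numbers of the 6 past the rule were 2, 0, 5, 3, 6 and 1. A rule of 2-fold gave 0, 0, 3, 0, 4 and 0. Assuming that cultures vary with a coefficient of 0.2 gave 0, 0, 1, 0, 1 and 0, the gene being Hmcn1 in TSA over young and Dpt in TSA plus phenamil over TSA. In the same order, all genes past 1.5-fold numbered 165, 131, 387, 133, 223 and 128. No filter gave 341, 271, 590, 285, 346 and 316. A filter of 200 counts gave 56, 24, 200, 46, 120 and 30. The 2-fold rule gave 33, 20, 87, 20, 50 and 28. The assumed variation gave 45, 35, 106, 35, 56 and 36. Total counts and DESeq2 size factors kept these numbers within 1.5 times. Total counts lowered the share of higher calls in TSA plus phenamil over young from 53.1% to 40.5%. No paired analysis was possible because each group had 1 library. Depth limits Dpt and Smoc1 most, at 81 to 257 counts per library.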
